A study of Mus musculus with 28 samples.

Results

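The genes described here are Enpp2 and 7 companions of the lysophosphatidic acid (LPA) pathway, 8 of the 17342 genes in the deposited RNA-seq table. They were taken by symbol: the receptor genes Lpar1, Lpar2, Lpar3, Lpar4 and Lpar6, and the phosphatase genes Plpp1 and Plpp3. All 8 passed the filter on low values. Enpp2 was picked with its levels in these libraries already known, so its own values are given as a description, with no test. The companions and all gene lists below were also chosen with earlier results of these data known. Their p-values and counts are not independent of that choice.

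LPA is a small signalling lipid that acts outside the cell. Enpp2 encodes autotaxin, a secreted enzyme that cuts choline from lysophosphatidylcholine to make it. Cells sense it through G protein-coupled receptors of an older family (Lpar1, Lpar2, Lpar3) and of a family related to purine receptors (Lpar4, Lpar6), which signal through calcium and cyclic AMP, among other routes. Phosphatases with their active site on the outer face of the membrane, among them those made by Plpp1 and Plpp3, remove the phosphate and end the signal. Mouse embryos without Enpp2 die at midgestation with defects of the yolk sac vessels. Serum, which was in the culture medium, itself carries LPA and autotaxin.

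The 7 libraries came from V6.5 mouse embryonic stem cells (ESCs), a male line from a cross of 129 and C57BL/6 mice. The groups were Tet2-KO (2 clones), Tet2-Mut (2 clones) and Tet2-WT (3 independent ESC samples). Tet2 makes an enzyme that oxidizes methylated cytosine, and the series asks about what Tet2 does without that activity, which is why the 2 altered genotypes were compared with each other as well as with Tet2-WT. The mutation carried by Tet2-Mut is not described in the labels. All cells were maintained on feeder fibroblasts in serum with LIF, separated from the feeders by pre-plating and kept overnight on gelatin before RNA was taken. With 2 clones in a genotype, a difference between genotypes cannot be told apart from one between clones.

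Values are gene counts divided by the authors' DESeq2 size factors, called normalized counts below. They can be compared between libraries for 1 gene but not between genes, since transcript length is not taken out. Libraries held 41.9 to 58.5 M reads assigned to genes, and 3 reads corresponded to a normalized count of 2.50 to 3.54. Tet2 itself had 4624 and 5206 normalized counts in the Tet2-KO libraries and 9992 and 13181 in the Tet2-Mut libraries, against 10343, 10244 and 12074 in the Tet2-WT libraries, so the Tet2-KO libraries were the lowest. Pou5f1, Nanog and Sox2, which mark ESCs, were at 18677 normalized counts or more in all 7 libraries, while the 10 ESC markers together were lowest in Tet2-KO replicate 1 (sums given with the other markers). Some chromosomes stood apart: genes of chromosome 8 had a median log2 difference from the Tet2-WT mean of -0.28 and -0.24 in the Tet2-KO libraries and of 0.28 and 0.27 in the Tet2-Mut libraries. On chromosome 14 this median was 0.49 in Tet2-Mut replicate 2 and between -0.05 and 0.02 in the other 6 libraries. Lpar2 lies on chromosome 8 and Lpar6 on chromosome 14.

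The proximal promoters of the 3 receptor genes whose levels are described most fully below differ in their content of CG, the dinucleotide at which Tet2 acts. They are shown, 5′ to 3′ on the gene's strand, from 250 bases before to 50 bases after the start, as RefSeq gives them for GRCm38.p6, with each CG in capitals. The motif reads the same on both strands. The sequences for Lpar4 (chrX:106920375-106920674), Lpar6 (chr14:73237641-73237940) and Lpar2 (chr8:69822315-69822614), all on the plus strand, were:
Lpar4: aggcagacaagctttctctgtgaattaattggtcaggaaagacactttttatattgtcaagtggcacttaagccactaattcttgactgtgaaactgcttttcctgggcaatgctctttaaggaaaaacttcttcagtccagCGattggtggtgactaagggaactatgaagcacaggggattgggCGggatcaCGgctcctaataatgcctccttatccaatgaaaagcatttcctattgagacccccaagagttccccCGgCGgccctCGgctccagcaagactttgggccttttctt
Lpar6: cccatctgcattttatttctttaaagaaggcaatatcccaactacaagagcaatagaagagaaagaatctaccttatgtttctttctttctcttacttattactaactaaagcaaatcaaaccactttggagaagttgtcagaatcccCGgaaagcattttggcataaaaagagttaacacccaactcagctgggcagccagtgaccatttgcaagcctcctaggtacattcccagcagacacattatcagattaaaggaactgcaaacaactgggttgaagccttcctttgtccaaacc
Lpar2: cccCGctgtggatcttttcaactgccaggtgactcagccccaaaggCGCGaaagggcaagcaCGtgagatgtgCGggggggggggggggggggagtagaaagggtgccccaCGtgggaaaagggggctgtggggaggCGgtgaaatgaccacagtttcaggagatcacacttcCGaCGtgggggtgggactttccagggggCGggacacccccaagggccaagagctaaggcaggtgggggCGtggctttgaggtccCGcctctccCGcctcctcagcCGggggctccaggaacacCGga
The Lpar4 window held 6 CG and the Lpar6 window 1, against 15 in the Lpar2 window. Of 32851 windows of this length, 56.4% held at least 6, 94.6% at least 1 and 34.6% at least 15, with a median of 7. These counts describe the letters only; methylation of these windows was not analysed here.

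Enpp2 (chr15:54838901-54952789) was many times higher in both Tet2-KO clones than in any other library. It had 1776 and 1155 normalized counts in the Tet2-KO libraries, 265 and 122 in the Tet2-Mut libraries and 138, 134 and 94.4 in the Tet2-WT libraries. The Tet2-KO libraries did not overlap with either other group, whereas Tet2-Mut replicate 2 lay within the range of Tet2-WT. The group means were 1466 ± 439 in Tet2-KO (SD, n = 2), 193 ± 101 in Tet2-Mut (SD, n = 2) and 122 ± 24.1 in Tet2-WT (SD, n = 3). The Tet2-KO mean was 12.0-fold the Tet2-WT mean and 7.59-fold the Tet2-Mut mean. On the log2(normalized count + 1) scale the differences were 3.56 (SE 0.34) for Tet2-KO against Tet2-WT and 2.99 (SE 0.37) for Tet2-KO against Tet2-Mut. For Tet2-Mut against Tet2-WT the log2 difference was 0.57 (SE 0.34), and it was 0.01 without Tet2-Mut replicate 1 and 1.13 without Tet2-Mut replicate 2, so the single clones decide it.

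**Figure D1:**
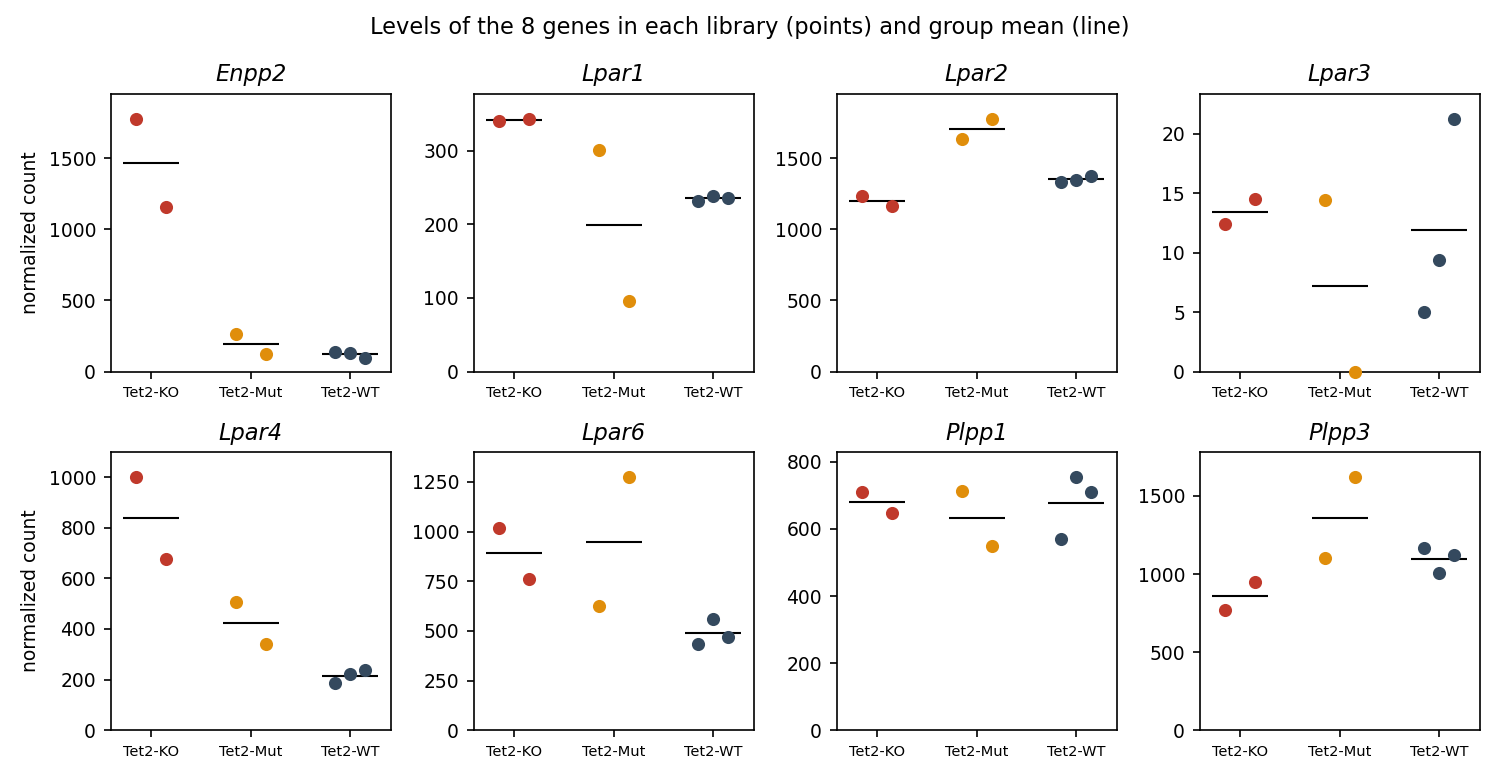
Normalized counts (vertical axes, linear, starting at 0) of the 8 genes in each library; points are libraries of Tet2-KO, Tet2-Mut and Tet2-WT, and lines are group means. Enpp2 and Lpar4 were highest in the 2 Tet2-KO libraries, and Lpar2 was highest in the 2 Tet2-Mut libraries.

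The genes next to Enpp2 did not share its level. Of the 10 tested genes closest to it, 5 on each side, 0 passed the limma test in each of the 3 comparisons. Between 3.43% and 6.19% of all tested genes passed in these comparisons. The log2 fold changes of the 10 genes in Tet2-KO against Tet2-WT ran between -0.26 and 0.87. The median over 633 genes of chromosome 15 was 0.03 in that comparison. No gene of the table overlapped the span of Enpp2.

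The receptor gene with the clearest difference was Lpar4 (chrX:106920625-106933899), which encodes a receptor of the purine-related family. It had 999 and 676 normalized counts in the Tet2-KO libraries, 506 and 342 in the Tet2-Mut libraries and 186, 220 and 236 in the Tet2-WT libraries. The 3 groups did not overlap, with Tet2-KO highest and Tet2-Mut between the others. Lpar4 rose in Tet2-KO against Tet2-WT, with a log2 fold change of 1.94 (SE 0.23, limma adjusted p = 0.00551), or 3.91-fold between the means. The adjusted p stayed between 0.000786 and 0.0436 with each library left out in turn, and was 0.0537 with a replicate block and 0.0733 with a prior variance that ignored the mean level. In Tet2-Mut against Tet2-WT the log2 fold change was 0.96 (SE 0.23, limma adjusted p = 0.0550). That p passed 0.05 without Tet2-KO replicate 1 (0.0397), Tet2-KO replicate 2 (0.0386) or Tet2-Mut replicate 2 (0.0434). Between Tet2-KO and Tet2-Mut the log2 fold change was 0.98 (SE 0.25, limma adjusted p = 0.0514). It passed without Tet2-Mut replicate 1 (adjusted p = 0.00934) or Tet2-KO replicate 2 (0.0370).

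Around Lpar4, the genes Cysltr1 (317 kb away) and Fndc3c1 (435 kb away) had differences of similar size in Tet2-KO against Tet2-WT. Over the 10 tested neighbours of Lpar4 the log2 fold changes ran between -0.71 and 2.09 there, with a median of 0.09. Of these 10, 1 was called in Tet2-KO against Tet2-WT and 2 in Tet2-KO against Tet2-Mut, all higher. Of all tested genes 5.91% and 6.19% were called in these 2 comparisons. The neighbour on one side, Cysltr1, which encodes a receptor for leukotrienes, had 182 and 82.7 normalized counts in Tet2-KO, 78.3 and 36.7 in Tet2-Mut and 28.3, 47.1 and 16.5 in Tet2-WT. Both Tet2-KO libraries lay above all others, and the Tet2-KO against Tet2-WT value was 2.09 on the log2 scale (limma adjusted p = 0.0551). Cysltr1 passed without Tet2-Mut replicate 1 (adjusted p = 0.0252), Tet2-Mut replicate 2 (0.0240) or Tet2-KO replicate 2 (0.0478). On the other side, Itm2a, which encodes a small membrane protein, was at 567 and 378 normalized counts in Tet2-KO, 257 and 193 in Tet2-Mut and 301, 284 and 326 in Tet2-WT. The log2 fold change of Itm2a was smaller, 0.61 in Tet2-KO against Tet2-WT (limma adjusted p = 0.124). Unlike that of Lpar4, it was negative in Tet2-Mut against Tet2-WT (-0.44). Fndc3c1, named after its values were seen, had 2150 and 1432 normalized counts in Tet2-KO, 635 and 296 in Tet2-Mut and 474, 444 and 361 in Tet2-WT. Its log2 fold change was 2.05 in Tet2-KO against Tet2-WT (limma adjusted p = 0.0103). That call was lost without Tet2-KO replicate 1 (adjusted p = 0.0871) or without Tet2-WT replicate 1, 2 or 3 (0.0549, 0.0547 and 0.0626). The median over 567 genes of chromosome X was 0.07 in Tet2-KO against Tet2-WT. Of these genes 10.4% were called there, 44 higher and 15 lower.

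Lpar2 (chr8:69822565-69831102), a receptor gene of the older family, moved with its chromosome. It had 1234 and 1163 normalized counts in the Tet2-KO libraries, 1631 and 1776 in the Tet2-Mut libraries and 1330, 1347 and 1377 in the Tet2-WT libraries. None of the 3 groups overlapped: Tet2-Mut was highest and Tet2-KO lowest. Lpar2 fell in Tet2-KO against Tet2-Mut by 0.51 on the log2 scale (SE 0.095, limma adjusted p = 0.0170). The call was lost without Tet2-WT replicate 2 (adjusted p = 0.0541), Tet2-Mut replicate 2 (0.0585) or Tet2-KO replicate 2 (0.0600), with a replicate block (0.0760), with a prior variance that ignored the mean level (0.0716) and with only the 2 groups in the fit (0.149).

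The median log2 fold change of the 861 tested genes of chromosome 8 was -0.52 in the same comparison, with 396 lower and 3 higher, and that of Lpar2 differed from it by 0.02. All 10 neighbours of Lpar2 had negative values, between -1.40 and -0.15, and 4 of them were called lower, where 6.19% of all tested genes were called. Against Tet2-WT, Lpar2 had a log2 fold change of -0.17 in Tet2-KO (limma adjusted p = 0.276), where the chromosome's median was -0.26, and of 0.33 in Tet2-Mut (limma adjusted p = 0.0730), where it was 0.27. In Tet2-Mut against Tet2-WT, Lpar2 passed without Tet2-Mut replicate 1 (log2 fold change 0.39, adjusted p = 0.0356). Whether Lpar2 differs between genotypes beyond the whole chromosome was not tested.

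**Figure D2:**
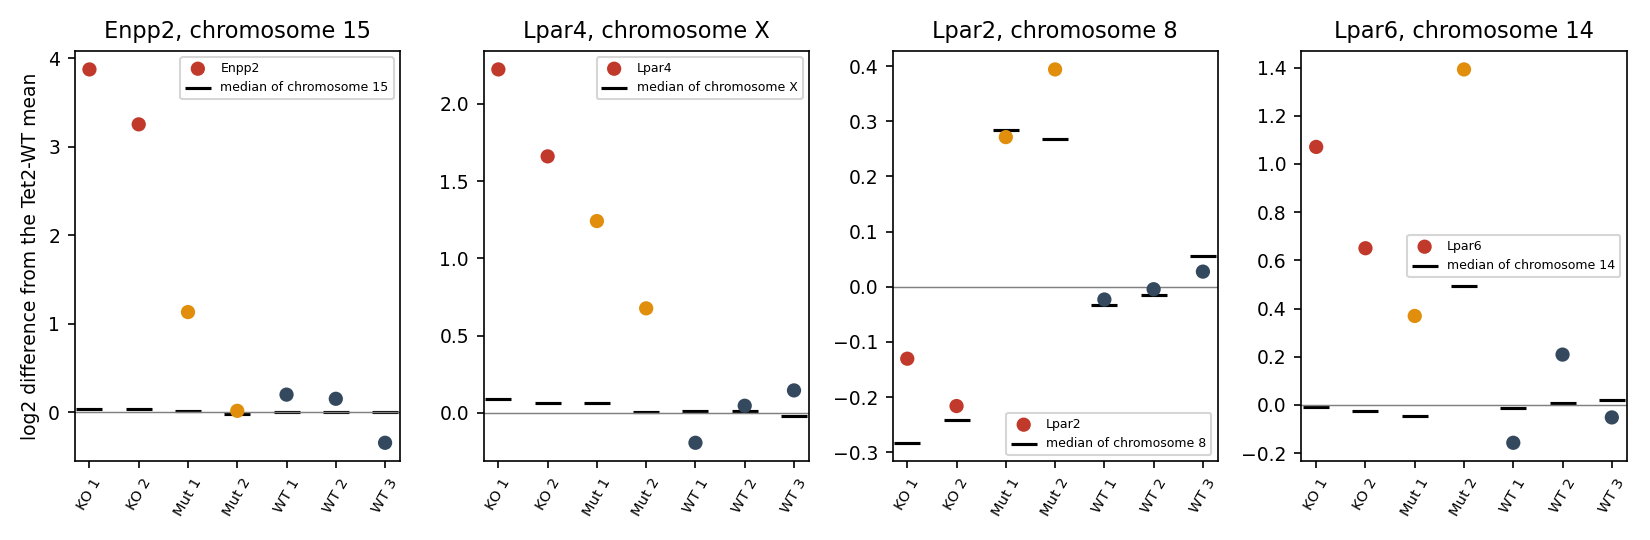
Log2 difference from the Tet2-WT mean (vertical axes, on separate scales) of Enpp2, Lpar4, Lpar2 and Lpar6 in each library (points) and the median of all tested genes on the same chromosome (short lines). Lpar2 followed chromosome 8, Enpp2 and Lpar4 rose far above the medians of chromosomes 15 and X in both Tet2-KO libraries, and the chromosome 14 median was 0.49 in Tet2-Mut replicate 2.

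Lpar6 (chr14:73237891-73240358), whose receptor is needed for hair growth in humans, was higher in every altered clone than in every Tet2-WT library. It had 1019 and 761 normalized counts in Tet2-KO, 626 and 1273 in Tet2-Mut and 434, 560 and 467 in Tet2-WT. The 2 altered genotypes overlapped with each other. The log2 fold changes of 0.86 in Tet2-KO against Tet2-WT (SE 0.27, limma adjusted p = 0.0973) and 0.88 in Tet2-Mut against Tet2-WT (SE 0.27, limma adjusted p = 0.111) did not pass. The first passed without Tet2-Mut replicate 1 (adjusted p = 0.00840) or Tet2-Mut replicate 2 (0.00937), and the second without Tet2-Mut replicate 1 (log2 fold change 1.39, adjusted p = 0.00243). The last value rests on Tet2-Mut replicate 2 alone, the library in which chromosome 14 was raised as a whole. Without that library the log2 fold change in Tet2-Mut against Tet2-WT was 0.37. With all 7 libraries the chromosome 14 median in this comparison was 0.22. The part of the chromosome in these Lpar6 values was not tested.

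Lpar6 lies inside the gene Rb1 (chr14:73192858-73325951), and the sources used here do not state whether reads were counted by strand, so reads of the 2 genes could be mixed. Rb1, which encodes the retinoblastoma protein, had 790 and 939 normalized counts in Tet2-KO, 822 and 1116 in Tet2-Mut and 885, 824 and 876 in Tet2-WT. Its Tet2-KO libraries lay on either side of Tet2-WT, unlike those of Lpar6.

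Lpar1 (chr4:58435252-58554027), the most widely studied LPA receptor gene, had 341 and 343 normalized counts in Tet2-KO, 301 and 96.5 in Tet2-Mut and 231, 239 and 236 in Tet2-WT. The Tet2-KO libraries were above all others, and the 2 Tet2-Mut clones lay on either side of Tet2-WT. The log2 fold changes were 0.54 in Tet2-KO against Tet2-WT (SE 0.38, limma adjusted p = 0.450) and 1.0 in Tet2-KO against Tet2-Mut (SE 0.42, limma adjusted p = 0.223). The Tet2-Mut clones set these results. Tet2-KO against Tet2-WT passed without Tet2-Mut replicate 2 (adjusted p = 0.0430), while without Tet2-Mut replicate 1 Tet2-KO against Tet2-Mut passed with a log2 fold change of 1.81 (adjusted p = 0.000743). In Tet2-Mut against Tet2-WT the log2 fold change was -0.46 (limma adjusted p = 0.532). It was 0.35 without Tet2-Mut replicate 2 and -1.28 without Tet2-Mut replicate 1 (adjusted p = 0.00393).

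Lpar3, on chromosome 3, was near the limit of detection. It had 12.4 and 14.5 normalized counts in Tet2-KO, 14.4 and 0 in Tet2-Mut and 4.99, 9.41 and 21.2 in Tet2-WT. The ranges of all 3 groups overlapped. A count of 0 in Tet2-Mut replicate 2 allows up to 2.89 normalized counts (3 reads), or more if both mates of a pair were counted. No comparison passed with all 7 libraries (limma adjusted p = 0.887, 0.473 and 0.432 for Tet2-KO against Tet2-WT, Tet2-Mut against Tet2-WT and Tet2-KO against Tet2-Mut). The last 2 comparisons passed without Tet2-Mut replicate 1 (adjusted p = 0.0416 and 0.0299), when that 0 stood alone for Tet2-Mut.

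Plpp3 (chr4:105157347-105232767), which encodes a phosphatase that degrades LPA outside the cell, had 772 and 946 normalized counts in Tet2-KO, 1104 and 1620 in Tet2-Mut and 1168, 1004 and 1124 in Tet2-WT. The Tet2-KO libraries were the lowest, without overlap with the other groups, and Tet2-Mut replicate 1 lay within Tet2-WT. The log2 fold change of Tet2-KO was -0.36 against Tet2-WT (SE 0.17, limma adjusted p = 0.240) and -0.65 against Tet2-Mut (SE 0.18, limma adjusted p = 0.0779). In Tet2-Mut against Tet2-WT the log2 fold change was 0.29 (limma adjusted p = 0.366). The single Tet2-Mut clones set these results. Tet2-KO against Tet2-Mut was -0.92 without Tet2-Mut replicate 1 and -0.37 without Tet2-Mut replicate 2. For Tet2-Mut against Tet2-WT the values were 0.56 and 0.01 in the same order. Plpp1, the other phosphatase gene, had 710 and 648 normalized counts in Tet2-KO, 715 and 548 in Tet2-Mut and 570, 754 and 712 in Tet2-WT. These ranges overlapped, and the log2 fold changes were 0.01 in Tet2-KO against Tet2-WT (SE 0.16), -0.11 in Tet2-Mut against Tet2-WT (SE 0.16) and 0.12 in Tet2-KO against Tet2-Mut (SE 0.18). The span of Plpp1 overlaps that of Mtrex, whose normalized counts lay between 9932 and 11584 in the 7 libraries.

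Of the 7 genes other than Enpp2, 1 was called in Tet2-KO against Tet2-WT (Lpar4, higher), where 5.91% of all 17338 tested genes were called. In Tet2-Mut against Tet2-WT limma called 0 of the 7, where 3.43% of all genes were called; 3 had an unadjusted p under 0.05, edgeR called 0 and DESeq2 called 1 on 6 libraries. In Tet2-KO against Tet2-Mut 1 was called (Lpar2, lower), where 6.19% of all genes were called. On chromosome 8, which holds Lpar2, the share was 46.3%. Groups did not overlap for 5, 3 and 4 of the 7 genes in the order of these comparisons, against 44.7%, 40.7% and 44.8% of all tested genes. The median log2 fold change of the 7 was 0.37, 0.29 and 0.12, against 0.00, 0.01 and 0.00 over all genes. Without Tet2-Mut replicate 1, 2, 5 and 5 of the 7 were called, the lone Tet2-Mut library then being assumed to vary like the others. Without Tet2-Mut replicate 2 the counts were 3, 1 and 0. The comparisons share libraries and are not independent of each other.

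**Figure D3:**
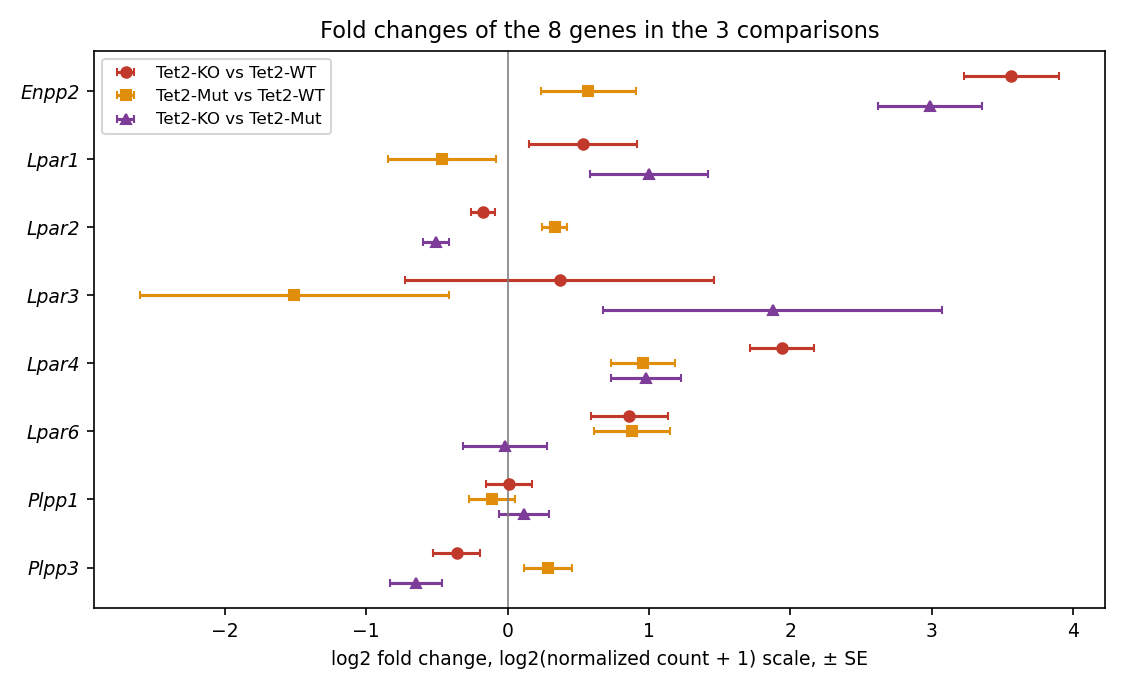
Log2 fold changes with standard errors (horizontal axis) of the 8 genes in Tet2-KO against Tet2-WT, Tet2-Mut against Tet2-WT and Tet2-KO against Tet2-Mut. Enpp2 reached 3.56 and 2.99 in the 2 comparisons of Tet2-KO, Lpar4 was positive in all 3, and Lpar3 had the widest errors.

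The genes whose pattern over the 7 libraries was most like that of Enpp2 were named by the smallest root mean square difference of mean-centred log2 values, among 12425 genes. They were Wnt3 (0.35), Fst (0.44), Fgf8 (0.45), Wnt8a (0.48), Sema6a (0.52), Fras1 (0.62), Zfp608 (0.62) and Piezo2 (0.63). Wnt3, Fgf8 and Wnt8a encode secreted signals of the gastrulating embryo and Fst encodes follistatin, which binds activin. Wnt3, for example, had 378 and 306 normalized counts in Tet2-KO, 70.0 and 34.7 in Tet2-Mut and 43.3, 64.0 and 33.0 in Tet2-WT. Sema6a, which encodes a semaphorin, a membrane-bound guidance cue, had 4142 and 2401 in Tet2-KO, 1040 and 595 in Tet2-Mut and 593, 575 and 588 in Tet2-WT. Both were highest in the 2 Tet2-KO libraries. Among the pathway's own genes Lpar4 was nearest to Enpp2, at 0.87, and the others ran between 1.28 and 1.81. These likenesses were chosen from the values and carry no test.

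**Figure D4:**
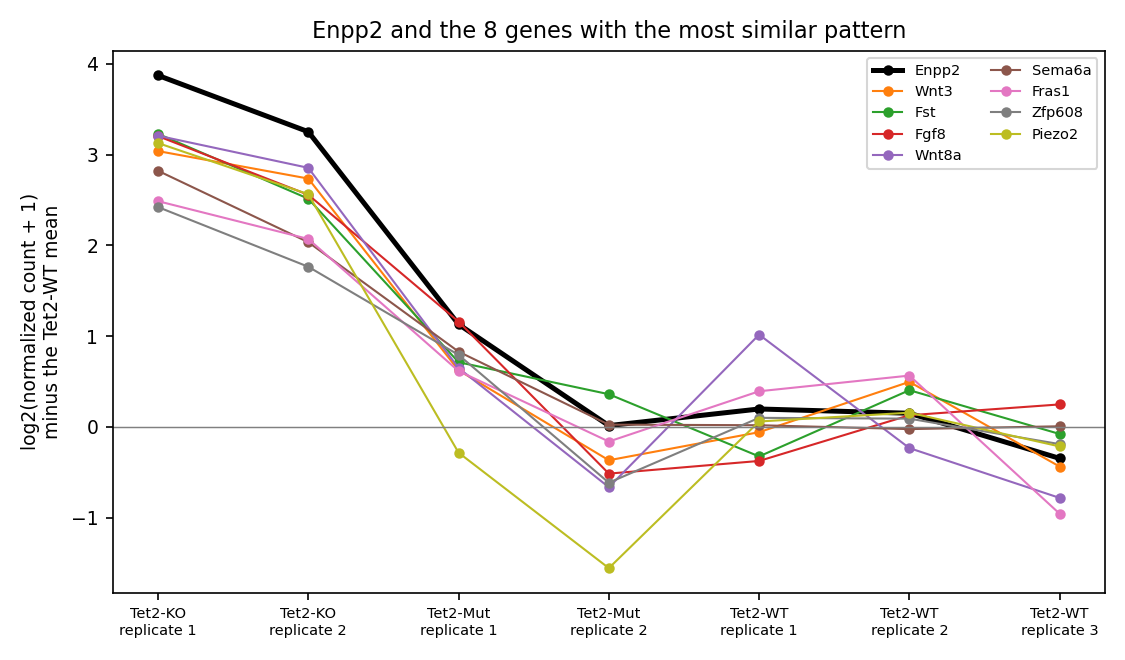
Log2(normalized count + 1) minus the Tet2-WT mean (vertical axis) in the 7 libraries (horizontal axis) for Enpp2 (black) and the 8 genes nearest to it in pattern. All 9 lines were highest in the 2 Tet2-KO libraries, and Tet2-Mut replicate 2 was below Tet2-Mut replicate 1 for each.

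Of 67 further genes of lysophospholipid metabolism and signalling, 57 were measured. In Tet2-KO against Tet2-WT limma called 6, 1 higher and 5 lower, where 5.91% of all tested genes were called. The median log2 fold change over the 57 was 0.03. Gnai2, which encodes an inhibitory G protein subunit, rose by 0.39 on the log2 scale. Gpat2, Acp6, Lpar5, Sgpl1 and Gna13 fell. Gpat2, which encodes a mitochondrial glycerol-3-phosphate acyltransferase, had 67.1 and 139 normalized counts in Tet2-KO, 105 and 44.4 in Tet2-Mut and 376, 350 and 296 in Tet2-WT. It fell by 1.80 in Tet2-KO (limma adjusted p = 0.0342) and fell by 2.29 in Tet2-Mut (limma adjusted p = 0.0262), both on the log2 scale and against Tet2-WT. Lpar5, the LPA receptor gene outside the 8, had 158 and 193 normalized counts in Tet2-KO, 272 and 315 in Tet2-Mut and 303, 283 and 292 in Tet2-WT. It was lowest in Tet2-KO and fell there by 0.74 against Tet2-WT (limma adjusted p = 0.0389). Acp6, an LPA phosphatase gene, fell by 0.55, Sgpl1, the sphingosine phosphate lyase gene, fell by 0.32, and Gna13, a G protein subunit gene, fell by 0.41. Without Tet2-WT replicate 1, 2 or 3, 0 of the 57 were called by limma (13, 15 and 18 at an unadjusted p under 0.05). The count was 2 without Tet2-KO replicate 1, 10 without Tet2-KO replicate 2 and 11 without either Tet2-Mut replicate. EdgeR on 6 libraries called 0.

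In Tet2-Mut against Tet2-WT limma also called 6 of the 57, 2 higher and 4 lower, with a median of -0.02. Of all tested genes 3.43% were called there. Plcb1, a phospholipase C gene, rose by 1.60 and Gnai1 by 0.68 on the log2 scale. Liph, which encodes a lipase that makes LPA from phosphatidic acid, fell by 1.15, the acyltransferase gene Gpat3 fell by 1.18 and Sgpl1 fell by 0.41, beside Gpat2. Liph had 687 and 986 normalized counts in Tet2-KO, 806 and 534 in Tet2-Mut and 1694, 1518 and 1201 in Tet2-WT, so both altered genotypes lay below Tet2-WT. In Tet2-KO against Tet2-Mut limma called 5, with a median of 0.02, where 6.19% of all tested genes were called. Gpat3 rose by 1.37 and Gna12 by 0.31, while Agpat5 fell by 0.49, Gpat4 fell by 0.46 and the sphingosine phosphate receptor gene S1pr2 fell by 0.45. Agpat5 and Gpat4, both acyltransferase genes, lie on chromosome 8, whose median was -0.52. The 6 calls against Tet2-WT were 0, 0 and 1 without Tet2-WT replicates 1, 2 and 3, 15 without Tet2-Mut replicate 1 and 2 without Tet2-Mut replicate 2. The 5 calls against Tet2-Mut were 3, 2 and 2 without Tet2-WT replicates 1, 2 and 3, 12 and 2 without Tet2-Mut replicates 1 and 2, and 2 and 3 without Tet2-KO replicates 1 and 2.

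LPA is known to activate the transcriptional regulators SRF and YAP, and genes that respond to them were read beside its receptors. Whether LPA had a part in the levels of these genes was not tested. In Tet2-KO against Tet2-WT 8 of 16 were called higher and 0 lower, with a median log2 fold change of 1.13, where 5.91% of all tested genes were called. The log2 fold change was positive in 15 of the 16. Fos, named after its values were seen, went the other way. It had 180 and 213 normalized counts in Tet2-KO, 153 and 170 in Tet2-Mut and 266, 221 and 262 in Tet2-WT. Ccn1, which encodes a matricellular protein, had 6357 and 3006 normalized counts in Tet2-KO, 1439 and 1688 in Tet2-Mut and 1074, 1501 and 1278 in Tet2-WT. Tagln, an actin-binding protein gene, had 1951 and 854 in Tet2-KO, 378 and 361 in Tet2-Mut and 267, 312 and 230 in Tet2-WT. Both were highest in the 2 Tet2-KO libraries, and more so in replicate 1. Their log2 fold changes were 1.78 for Ccn1 (limma adjusted p = 0.0109) and 2.27 for Tagln (limma adjusted p = 0.00768), with Amotl2 at 1.33 and Tpm1 at 1.31. In Tet2-KO against Tet2-Mut 5 rose and 0 fell, and in Tet2-Mut against Tet2-WT 1 rose, Ajuba, by 0.77. Of all tested genes 6.19% and 3.43% were called in these 2 comparisons. The 8 were 2, 3 and 0 without Tet2-WT replicates 1, 2 and 3 (12 at an unadjusted p under 0.05 without replicate 3), 0 with a replicate block or with a prior variance that ignored the mean level (13 unadjusted in each), 2 by edgeR on 6 libraries, and 4 with Tet2-KO replicate 1 left out. In Tet2-KO against Tet2-Mut the 5 became 3 without Tet2-Mut replicate 2 or any 1 Tet2-WT library, and leaving out Tet2-KO replicate 2 gave 11. They became 0 with only the 2 groups in the fit (9 unadjusted) and with a prior variance that ignored the mean level (8 unadjusted), and 3 with a replicate block. Ajuba, the 1 gene called in Tet2-Mut against Tet2-WT, was lost when any 1 Tet2-WT library or Tet2-Mut replicate 2 was left out (0 called, 2 or 3 at an unadjusted p under 0.05), and 2 were called without Tet2-Mut replicate 1. It was also lost with a replicate block, with a prior variance that ignored the mean level and by edgeR (3 unadjusted in each).

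The summed levels of fibroblast markers and of primitive streak markers were, like Enpp2, highest in the Tet2-KO libraries, though not every marker was. The summed level of 24 measured fibroblast markers of 27 listed was 23762 and 13550 normalized counts in Tet2-KO, 10829 and 8876 in Tet2-Mut and 8219, 8009 and 7774 in Tet2-WT. In Tet2-KO against Tet2-WT 9 of the 24 rose and 0 fell; 1, 2 and 0 were called without Tet2-WT replicates 1, 2 and 3 (17, 16 and 17 at an unadjusted p under 0.05), 1 without Tet2-KO replicate 1, and 15 and 14 without Tet2-Mut replicates 1 and 2. With a replicate block, or with a prior variance that ignored the mean level, 0 were called (16 unadjusted in each), and edgeR on 6 libraries called 1. The fibroblast list shares 2 genes, Tagln and Acta2, with the SRF and YAP list, so the 2 lists and their sums are not separate. In 22 of the 24 markers both Tet2-KO libraries lay above all Tet2-WT libraries, and in 12 above both Tet2-Mut libraries. Over all tested genes, 44.7% and 44.8% did not overlap in these 2 comparisons, in either direction. Of all tested genes 5.91% were called in Tet2-KO against Tet2-WT. Col1a1, a defining collagen gene, had 2123 and 1444 in Tet2-KO, 1137 and 689 in Tet2-Mut and 782, 693 and 733 in Tet2-WT. Of the defining fibroblast markers measured (Col1a1, Col3a1, Postn, Prrx1), 0 were at 0 in any library. The other defining markers, Dcn and Lum, were absent from the deposited values, as was Fap of the list.

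The 12 primitive streak and mesoderm markers summed to 2812 and 2103 normalized counts in Tet2-KO, 877 and 735 in Tet2-Mut and 880, 1071 and 902 in Tet2-WT. In Tet2-KO against Tet2-WT 6 of 12 rose, where 5.91% of all tested genes were called. The count of 6 was 3 when any 1 Tet2-WT library was left out, and 2 when Tet2-KO replicate 1 was. It was 0 with a replicate block (8 unadjusted), 1 with a prior variance that ignored the mean level and 3 by edgeR on 6 libraries. In 9 of the 12 both Tet2-KO libraries lay above all Tet2-WT libraries, while 44.7% of all tested genes did not overlap, in either direction. Mesp2, named after its values were seen, instead had 66.1 and 39.3 normalized counts in Tet2-KO, 99.9 and 131 in Tet2-Mut and 69.9, 90.4 and 73.2 in Tet2-WT. The primitive streak list includes Wnt3, Fgf8 and Fst, the genes nearest to Enpp2 in pattern. All of these were among the 6 called, so that count and the likeness to Enpp2 are not separate. The defining marker T had 520 and 333 normalized counts in Tet2-KO, 27.8 and 15.4 in Tet2-Mut and 14.1, 30.1 and 9.44 in Tet2-WT. The other defining markers, Mixl1 and Eomes, were not called in Tet2-KO against Tet2-WT. Mixl1 had 70.2 and 53.8 in Tet2-KO, 16.5 and 45.3 in Tet2-Mut and 16.6, 22.6 and 33.0 in Tet2-WT. Eomes had 843 and 676 in Tet2-KO, 393 and 303 in Tet2-Mut and 578, 667 and 587 in Tet2-WT. Of the list, Eomes alone was called in Tet2-Mut against Tet2-WT, lower, where 3.43% of all tested genes were called. The 10 measured endoderm markers of 12 listed summed to 4289 and 5466 in Tet2-KO, 4833 and 6098 in Tet2-Mut and 4840, 5286 and 6196 in Tet2-WT. These sums overlapped between the groups.

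The 10 ESC markers summed to 248697 and 303909 normalized counts in Tet2-KO, 296361 and 302044 in Tet2-Mut and 308375, 304515 and 306955 in Tet2-WT. Tet2-KO replicate 1, the library highest in Enpp2 and in the fibroblast and primitive streak sums, had the lowest sum, with a median log2 difference of -0.34 from the Tet2-WT mean over the 10 markers, against -0.03 in Tet2-KO replicate 2. In Tet2-KO against Tet2-WT 9 of the 10 had negative log2 fold changes and in 5 both Tet2-KO libraries lay below all Tet2-WT libraries. Over all tested genes 44.7% did not overlap in this comparison, in either direction, and 5.91% were called. Of the 10 ESC markers 1 was called, Tdgf1, which encodes a Nodal co-receptor and fell by 0.37 on the log2 scale (limma adjusted p = 0.0231). That call was lost without Tet2-WT replicate 1, 2 or 3 (adjusted p = 0.102, 0.0877 and 0.0763), without Tet2-KO replicate 1 (0.142), with a replicate block (0.118) and with a prior variance that ignored the mean level (0.130). In Tet2-Mut against Tet2-WT limma called 1 of the 10, Nanog, which was lower, where 3.43% of all tested genes were called. Nanog had 19927 and 18677 normalized counts in Tet2-Mut and 25897, 23922 and 24977 in Tet2-WT. In bulk RNA, more cells of a type and more RNA per cell cannot be told apart, and the part that feeder cells or differentiating cells have in the levels of Enpp2 and Lpar4 was not tested.

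**Figure D5:**
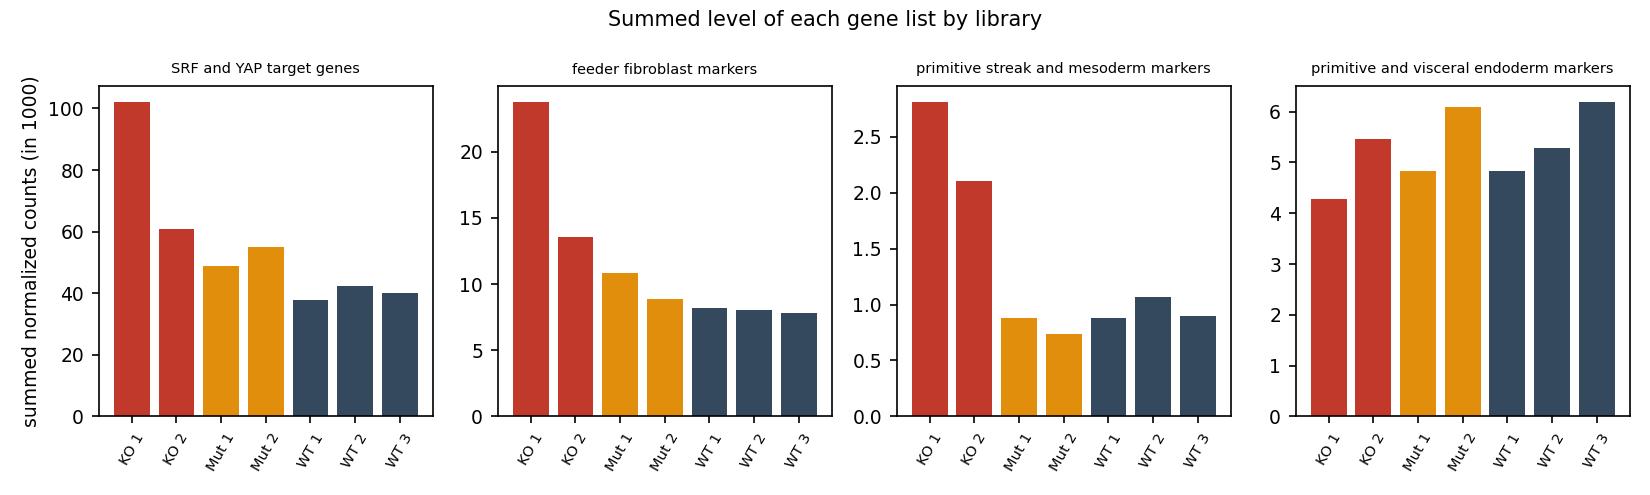
Summed normalized counts, in units of 1000 (vertical axes, from 0), of 4 gene lists in each library (bars): SRF and YAP targets, fibroblast markers, primitive streak and mesoderm markers, and endoderm markers. The first 3 sums were highest in the 2 Tet2-KO libraries, and the endoderm sums overlapped between groups.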

How the data were processed

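RNA-seq of 7 ESC libraries was analysed; the 3 bisulfite and 18 CUT&Tag samples were not analysed here. The deposited signal is gene counts divided by DESeq2 size factors. Per the submitters' processing notes the tools of the authors include DESeq2, featureCounts, STAR 2.7.3a and Trim Galore 0.6.5, and the build is mm10; annotation and strand setting are not given in the sources used here. Totals came from the spacing of the values, which were whole multiples of 1 step in each library within 0.01 reads; 72.1% to 75.2% of low counts were even, so totals may count both mates of a pair.

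The 8 genes and all lists were chosen with earlier results of these data known. Differences were tested with limma 3.58.1 (R 4.3.3) on log2(value + 1), with group means over all 7 libraries, a prior variance following the mean, and Benjamini-Hochberg adjustment at 0.05 over the 17338 genes that reached 10 in 2 or more libraries. Fold changes on this scale understate those of low genes. The residual degrees of freedom were 4 and the prior added 5.03. The code was checked on simulated data, whose spread was set from the Tet2-WT libraries. Groups were taken from the labels, which call the Tet2-KO and Tet2-Mut libraries separate clones; p-values measure the spread among these samples.

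Named genes were the 8 genes, overlapping and nearest neighbours, up to 4 called genes for each list in a comparison, smallest p first, the 8 nearest to Enpp2 in pattern (mean of at least 50), Tet2 and defining markers; not every gene this takes is named, and others named in a list were chosen after their values were seen. Positions for 16093 genes (92.8%) came from RefSeq GRCm38.p6, the mm10 build. Alternatives were other pseudocounts, filters and scaling, 2 groups only, a replicate block, no mean trend, each library left out and, added after seeing the data, edgeR 4.0.16 and DESeq2 1.42.0 on the reads of 6 libraries. Tet2-WT replicate 1 was left out of these because its smallest value was 2 reads, so its step was less certain. Replicate libraries differed by more than sampling noise. Chi-square over its degrees of freedom was 33.3 for the Tet2-KO pair and 44.0 for the Tet2-Mut pair, against 7.13 to 13.2 between Tet2-WT libraries. The limma fit used 1 shared spread for all groups, although the clones varied more than the Tet2-WT samples.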

Additional observations from a re-analysis of the deposited data

How the results depend on the processing

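For all genes called in Tet2-KO against Tet2-WT, Tet2-Mut against Tet2-WT and Tet2-KO against Tet2-Mut (1025, 594 and 1074), fitting only the 2 groups gave 2159, 900 and 0 (2357 at an unadjusted p under 0.05), the replicate block 15, 7 and 467, no mean trend 19, 0 (3018 unadjusted) and 10, and edgeR on 6 libraries 93, 6 and 601; leaving out 1 library gave 85 to 2158, 6 to 2198 and 530 to 2679. For the 7 companions of Enpp2 (1, 0 and 1), the 2 groups alone gave 3, 1 and 0, the replicate block and no mean trend 0 in each (2 or 3 unadjusted), DESeq2 on 6 libraries 1, 1 and 3, a pseudocount of 10 gave 2 in the last, and leaving out 1 library 1 to 3, 0 to 5 and 0 to 5. For the 57 pathway genes (6, 6 and 5), the 2 groups alone gave 11, 9 and 0 (10 unadjusted), the replicate block and no mean trend 0 in each (14 to 17 unadjusted), edgeR 0, 0 and 3, and leaving out 1 library 0 to 11, 0 to 15 and 2 to 12. The log2 fold change of Enpp2 ran over 3.25 to 3.87, 0.014 to 1.13 and 2.43 to 3.55 with 1 library left out. With only the 2 groups in the limma fit, Lpar1 (adjusted p = 0.0438) and Lpar6 (0.00924) passed in Tet2-KO against Tet2-WT and Lpar4 (0.0419) in Tet2-Mut against Tet2-WT. DESeq2 also called Lpar4 there (0.0394), and in Tet2-KO against Tet2-Mut it called Lpar4 (0.00589) and Plpp3 (0.0282). Signs turned only for fold changes that had not passed. In Tet2-KO against Tet2-WT, edgeR gave -0.17 for Lpar3 and -0.11 for Plpp1, and DESeq2 -0.11 for Plpp1; with 1 library left out Lpar3 ran over -0.081 to 0.87 and Plpp1 over -0.11 to 0.091. In Tet2-Mut against Tet2-WT Lpar1 ran over -1.28 to 0.35, Lpar3 over -3.48 to 0.47 and Plpp1 over -0.30 to 0.085, and in Tet2-KO against Tet2-Mut Lpar3 over -0.099 to 3.85, Lpar6 over -0.53 to 0.49 and Plpp1 over -0.075 to 0.31. The cause was not tested. Replicate numbers name clones and did not pair libraries (correlations of deviations between same-numbered libraries of -0.20 to 0.22). The planned count tests on all 7 libraries were not run, since whole reads were taken for 6. Over the companions and all settings, 308 fold changes kept direction and side of the threshold, 23 gained a call, 8 lost one and 13 turned. Depth limits Lpar3.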
